A study of Mus musculus with 36 samples.

Results

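Wild-type (WT) brain was compared between P25, the juvenile age of the study, and P80, its adult age. These are 12 of the 36 libraries of the series, 6 at each age, 3 from males and 3 from females, and they were chosen by their labels alone. The study sequenced RNA from the whole brain of C57BL/6 mice that were WT or carried 1 S62X allele of Chd8, a chromatin remodeler gene. The WT mice carry no such allele, and the labels name no transgene or treatment for either genotype. The methods state 3 mice for each age, sex and genotype, so a library stands for a mouse. The oldest libraries are called P80 in titles, age labels and methods, and P56 in the description field, and P80 is used here. Heterozygous mice (HT) of the same ages, 12 libraries, served as a separate set of mice for the same contrast.

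Between P25 and P80 the mouse brain passes from the juvenile stage through puberty to adulthood. Neurons have been born and most have reached their place, while oligodendrocytes, the glial cells that wrap axons in lipid-rich myelin, are still being added and laying down membrane in the juvenile brain. Glucocorticoids from the adrenal gland and the circadian clock act on many cell types of this tissue, and both switch on known target genes.

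A value here is the authors' DESeq2-normalized estimate of fragments per gene and library, and a fold change was computed on log2 of the value plus 1. The values of a library summed to 33981761 to 35029432 at P25 and 35077133 to 35721750 at P80, and 25266 to 26121 genes against 24488 to 24753 were above 0. The 10 highest genes held 5.65 to 6.22% of the sum at P25 and 6.83 to 8.03% at P80. None of these 3 ranges overlapped between ages (exact permutation of ages within sex, p = 0.005 for each, the smallest p that 400 regroupings allow). The whole number of fragments cannot be recovered from such values, so depth is known only on this scale. Sex labels matched sex-linked genes in 24 of 24 WT and HT libraries, and the neuronal, astrocytic, oligodendrocytic and microglial markers were present throughout, with Snap25 (a presynaptic SNARE protein) between 62272 and 84620. No sequencing run or dissection hour is given in the sources used here, so a run or an hour shared by the mice of 1 age cannot be told apart from age.

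Of 18154 genes tested, 7601 differed between the ages at a Benjamini-Hochberg adjusted p under 0.05 (limma with sex as a covariate), which is 41.9%. P80 was higher for 3911 genes (21.5%) and lower for 3690 (20.3%). Most differences were small, with a median of 1.23-fold among the called genes. At least 1.5-fold differences numbered 663 higher (3.65%) and 620 lower (3.42%). In 1969 genes (10.8%) all 6 P80 libraries lay above all 6 P25 libraries, and in 1865 (10.3%) all lay below. These shares are the background for the counts below, and the median log2 fold change of all genes tested was 0.01. The lists below were chosen with earlier results of these data known, so their shares are a description and no test. Because bulk tissue was measured, fewer cells of a type and less RNA per cell cannot be told apart.

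**Figure D1:**
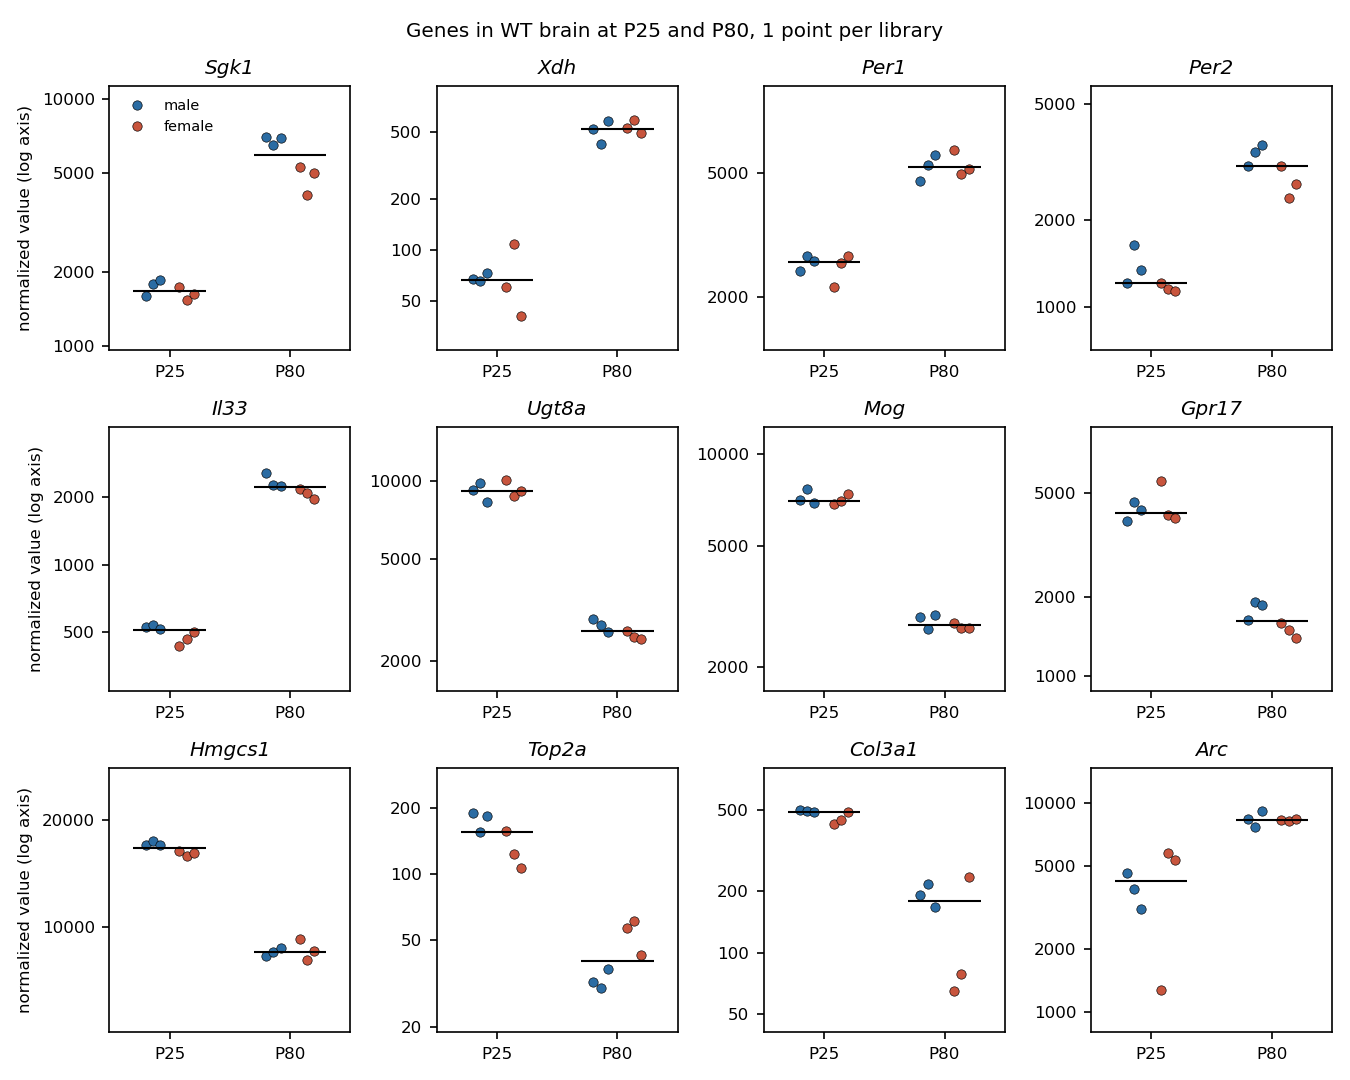
Normalized value (log axis) of 12 genes in each of the 12 WT libraries, by age, with males in blue and females in red and a bar at the median of 6. In each panel the 6 P25 and the 6 P80 libraries do not overlap, and 1 P25 female library lies far below the others in Arc.

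Genes known to answer to glucocorticoids rose almost throughout. Of 22 listed genes 21 passed the filter on low values, and 19 of these rose (90.5%, against 21.5% of all genes), 13 of them by at least 1.5-fold, while 0 fell. Their median log2 fold change was 0.74. The 2 that did not pass the test were Nr3c1, the glucocorticoid receptor itself, and Cdkn1a, a cell cycle inhibitor (log2 fold changes 0.00 and 0.21). In 17 of the 21 genes the 6 P80 libraries lay above the 6 P25 libraries.

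Sgk1 (ENSMUSG00000019970, chromosome 10, 21882184 to 21999903, + strand) encodes a serum- and glucocorticoid-induced kinase that regulates ion transport. Its value ranged from 1541 to 1849 (median 1680) at P25 and from 4090 to 7033 (median 5924) at P80. All P80 libraries lay above all P25 libraries, and Sgk1 was 3.39-fold higher at P80 (log2 fold change 1.76, SE 0.08, limma adjusted p = 3.79e-10). Plin4 (ENSMUSG00000002831, chromosome 17, 56100591 to 56109803, - strand), which encodes a lipid droplet coat protein, ranged from 36.5 to 68.4 (median 44.3) at P25 and from 492 to 1184 (median 840.1) at P80. Plin4 was 16.1-fold higher at P80 (log2 fold change 4.01, SE 0.227, limma adjusted p = 4.46e-09). That was the largest rise among genes named by the rule for single genes, which asks for a mean of at least 100 and no overlap. Xdh, xanthine dehydrogenase of purine breakdown, ranged from 40.6 to 108 (median 66.7) at P25 and from 424 to 588 (median 525) at P80, again without overlap, and was 7.73-fold higher at P80 (log2 fold change 2.95, SE 0.17, limma adjusted p = 5.31e-09). Hif3a, a hypoxia-inducible factor subunit, ranged from 122 to 237 (median 196) at P25 and from 354 to 521 (median 501) at P80 and had a log2 fold change of 1.40. Those of Arrdc2, an arrestin-domain protein, and Zbtb16, a zinc finger transcription factor, were 1.31 and 1.11. Fkbp5, the co-chaperone that dampens the receptor, and Tsc22d3, also called GILZ, rose by less, with 0.51 and 0.61. For Nr3c1 the P25 values were 2984 to 3699 (median 3473) and the P80 values 3007 to 3516 (median 3471), so the 2 ranges of the receptor's own transcript overlapped.

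The promoter of Sgk1 is shown because the list is defined by receptor response and the core of the glucocorticoid response element, ACANNNTGT, was searched in promoters. Letters come from RefSeq (build GRCm38.p6) and cover the 250 bases before the transcription start, which left 12776 of the genes tested with a window, and both strands were read. The core lay in at least 1 window of 3 of 18 list members (16.7%) and of 4.68% of all these genes. The window printed is 1 of 6 that RefSeq gives for Sgk1, the + strand of chr10:21978422-21978671, with the core in capitals.
Sgk1: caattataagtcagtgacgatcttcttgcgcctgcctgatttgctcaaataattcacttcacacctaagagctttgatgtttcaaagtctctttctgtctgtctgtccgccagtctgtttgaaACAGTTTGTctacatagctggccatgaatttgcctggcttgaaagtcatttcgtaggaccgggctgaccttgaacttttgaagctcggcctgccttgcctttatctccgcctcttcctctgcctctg
A match of letters describes the window and is no evidence of binding.

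Core clock genes also differed with age. Of 24 listed genes, all tested, 17 rose (70.8%), 6 of them by at least 1.5-fold, and 1 fell, with a median log2 fold change of 0.34. The period genes, repressors that close the daily feedback loop, were among the larger rises. Per1 (ENSMUSG00000020893, chromosome 11, 69095217 to 69109960, + strand) ranged from 2152 to 2710 (median 2583) at P25 and from 4703 to 5918 (median 5210) at P80, and Per2 (ENSMUSG00000055866, chromosome 1, 91415982 to 91459324, - strand) from 1138 to 1646 (median 1216) at P25 and from 2382 to 3612 (median 3070) at P80. Neither overlapped, and they were 2.09-fold higher and 2.35-fold higher. Cry1, the partner of the period proteins, ranged from 623 to 773 (median 669.7) at P25 and from 847 to 1179 (median 1096) at P80 and had a log2 fold change of 0.62. Ciart, another repressor of the loop, ranged from 495 to 695 (median 590.3) at P25 and from 849.8 to 1072 (median 915) at P80, with 0.65. Bhlhe40, a repressor that binds E-boxes, rose with 0.83.

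The activator pair of the loop, Arntl and Clock, did not rise, while Npas2, which can stand in for Clock, had a log2 fold change of 0.19 and passed the test. Arntl (BMAL1) ranged from 795 to 1046 (median 932) at P25 and from 711 to 891 (median 799.8) at P80 and had a log2 fold change of -0.20 (limma adjusted p = 0.0305), the single fall of the list. Its 2 groups overlapped, and the call was lost in 6 of the alternative analyses. Clock, its partner, had a log2 fold change of 0.02 and did not pass the test. Dbp, a robustly rhythmic output gene, ranged from 3039 to 3876 (median 3215) at P25 and from 2934 to 3970 (median 3357) at P80 and did not pass the test either (log2 fold change 0.02, limma adjusted p = 0.891). Male values of Dbp went from 3188 to 3876 at P25 to 2934 to 3118 at P80. Female values went from 3039 to 3243 at P25 to 3596 to 3970 at P80. This difference between the sexes did not pass the interaction test (male minus female -0.48, limma adjusted p = 0.0951). Per1 is a member of both the glucocorticoid and the clock list.

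E-boxes with the letters CACGTG, which read the same on both strands, are the sites of the BMAL1 and CLOCK pair. They lay in the 250 bases before the start in 5 of the 19 clock genes with a window (26.3%), namely Bhlhe41, Ciart, Cry1, Per1 and Tef, and in 9.31% of the 12776 genes. The windows of the 3 with the largest rise are printed with each E-box in capitals. Per1 is at chr11:69098699-69098948 (+), Cry1 at chr10:85185055-85185304 (-) and Ciart at chr3:95882229-95882478 (-), all GRCm38.p6.
Per1: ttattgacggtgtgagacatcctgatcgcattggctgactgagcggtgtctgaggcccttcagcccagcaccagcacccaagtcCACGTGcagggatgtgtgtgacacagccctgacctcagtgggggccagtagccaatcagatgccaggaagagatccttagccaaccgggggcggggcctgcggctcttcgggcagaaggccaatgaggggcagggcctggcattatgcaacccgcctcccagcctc
Cry1: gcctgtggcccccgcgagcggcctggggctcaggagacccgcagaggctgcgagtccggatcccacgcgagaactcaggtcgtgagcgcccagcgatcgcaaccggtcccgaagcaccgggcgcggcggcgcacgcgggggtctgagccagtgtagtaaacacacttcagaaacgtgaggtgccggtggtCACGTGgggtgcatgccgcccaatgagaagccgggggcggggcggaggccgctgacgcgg
Ciart: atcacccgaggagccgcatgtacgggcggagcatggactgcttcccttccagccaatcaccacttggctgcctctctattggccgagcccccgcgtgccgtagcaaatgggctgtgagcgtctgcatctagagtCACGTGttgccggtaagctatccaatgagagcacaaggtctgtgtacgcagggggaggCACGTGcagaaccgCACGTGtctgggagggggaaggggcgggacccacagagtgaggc
Ciart holds 3 E-boxes in this window, and Per1 and Cry1 hold 1 each.

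Immediate early genes, which are induced within minutes by neuronal activity and other stimuli, were mostly higher at P80 where they differed. Of 33 listed genes 32 were tested, 18 rose (56.2%), 14 of them by at least 1.5-fold, and 2 fell, with a median log2 fold change of 0.52. Arc, which regulates AMPA receptor traffic, ranged from 1274 to 5799 (median 4235) at P25 and from 7665 to 9221 (median 8325) at P80. Fosb and Nr4a1, both transcription factors, ranged from 102 to 444 (median 298) at P25 and from 492 to 746 (median 576) at P80, and from 766 to 3258 (median 2364) at P25 and from 3732 to 4537 (median 4153) at P80. The 3 genes did not overlap between ages and had log2 fold changes of 1.21, 1.22 and 0.99. Fos ranged from 252 to 1742 (median 1274) at P25 and from 1601 to 1824 (median 1740) at P80, overlapped and did not pass the test (log2 fold change 0.85, limma adjusted p = 0.0599). P25 libraries varied widely here, and 1 of them, P25 female 1, stood far below the rest. Averaging the log2 values of the members after centring each gene gave a list level of -0.89 there, against -0.39 to 0.11 in the other P25 libraries and 0.05 to 0.40 at P80. Without it 17 genes rose and 3 fell, the median was 0.40, and the log2 fold change of Arc was 0.89. That of Fos was then 0.43 and passed the test (limma adjusted p = 0.0263). In the fit of females alone 4 of the 32 rose and 3 fell, where 17.4% of all genes rose and 15.9% fell. In that of males 18 rose and 1 fell, with 12.8% and 12.2% of all genes.

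**Figure D2:**
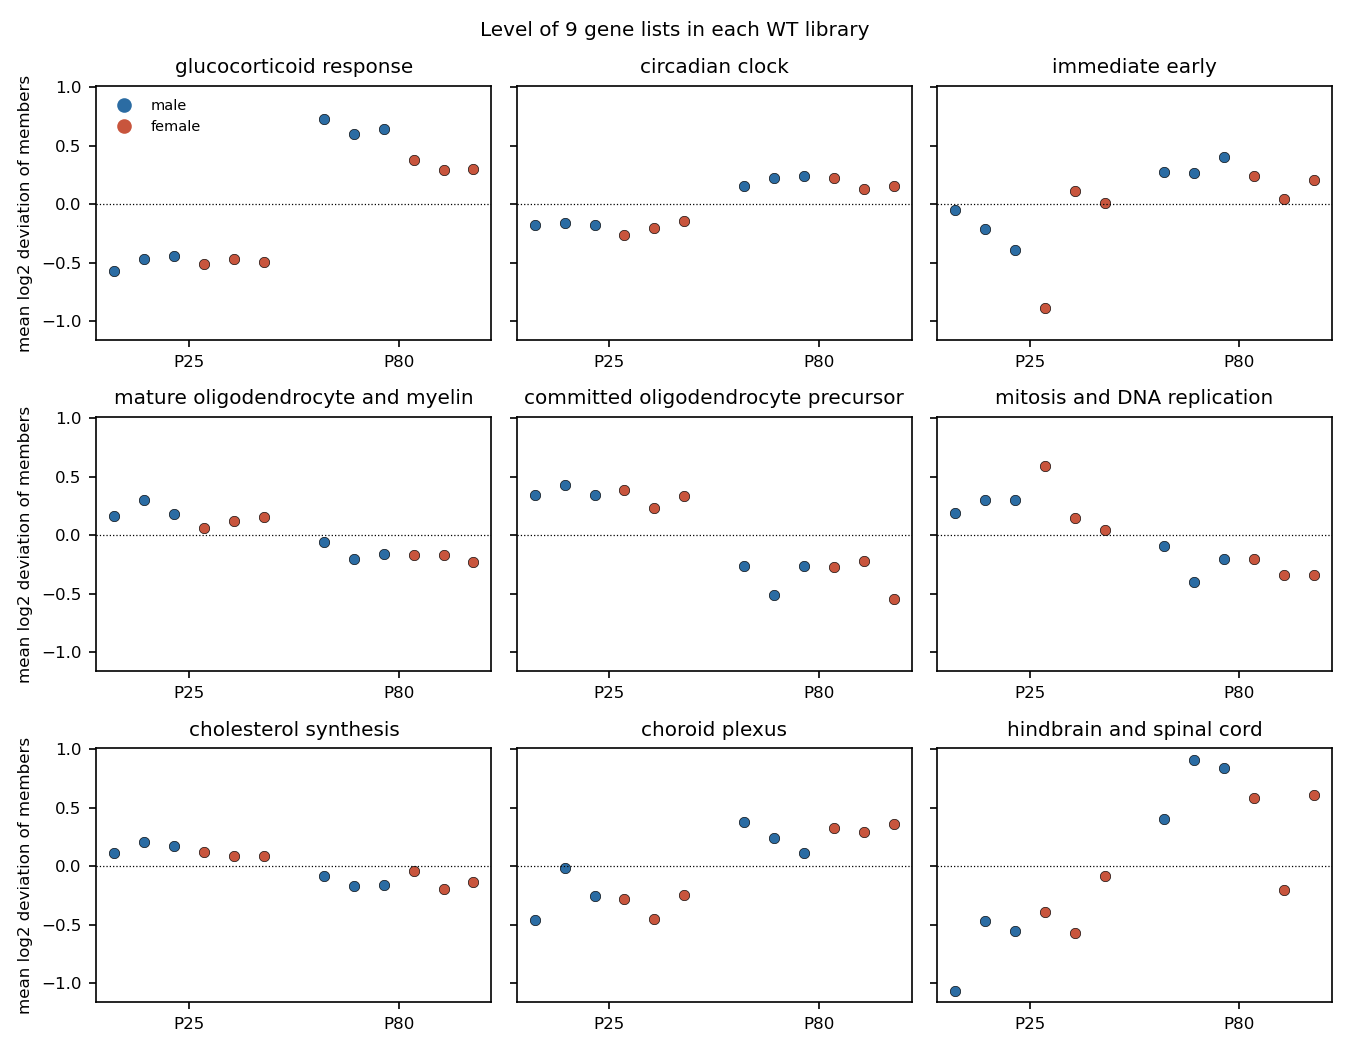
Level of 9 gene lists (vertical axis, average of the log2 values of the tested members, each centred on its own mean over 12 libraries) in each WT library, with males in blue and females in red. Glucocorticoid response genes sit between -0.57 and -0.44 at P25 and between 0.29 and 0.73 at P80, and in the immediate early panel 1 P25 female library is at -0.89.

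More oligodendrocyte genes fell than rose in each of the 3 lists of the lineage. All 39 genes of the mature oligodendrocyte and myelin list were tested, and 24 fell (61.5%, against 20.3% of all genes), 16 of them by at least 1.5-fold, while 11 rose (28.2%). The median log2 fold change was -0.45. In 23 genes every P80 library was below every P25 library, and in 9 every one was above.

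Several of the larger falls of this list are given first. Ugt8a (ENSMUSG00000032854, chromosome 3, 125865271 to 125938619, - strand) makes galactosylceramide, the main glycolipid of myelin, and ranged from 8268 to 10105 (median 9168) at P25 and from 2449 to 2932 (median 2615) at P80. It was 3.49-fold lower at P80 (log2 fold change -1.80, SE 0.0526, limma adjusted p = 1.95e-12). Its 2 groups lay far apart. Mog, a surface glycoprotein of the outermost myelin layer, ranged from 6823 to 7659 (median 7023) at P25 and from 2653 to 2957 (median 2731) at P80 and was 2.57-fold lower. Mal, a raft protein that helps to sort myelin proteins, ranged from 19166 to 23717 (median 22160) at P25 and from 8097 to 11310 (median 8684) at P80 and was 2.37-fold lower. Gsn, gelsolin, severs actin filaments during wrapping, ranged from 7831 to 9754 (median 8555) at P25 and from 2716 to 2889 (median 2800) at P80 and was 3.07-fold lower. Cnp, which keeps cytoplasmic channels in myelin open, was 2.04-fold lower, and Tspan2, a tetraspanin of the sheath, was 2.57-fold lower.

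Mbp and Mobp, the basic proteins that compact the sheath, fell less. Mbp ranged from 199258 to 248399 (median 222277) at P25 and from 124282 to 172323 (median 139415) at P80 and was 1.58-fold lower. Mobp ranged from 59392 to 69318 (median 64012) at P25 and from 36987 to 49278 (median 41022) at P80 and was 1.53-fold lower. Myrf, the transcription factor that keeps the myelin programme on, ranged from 2673 to 2832 (median 2766) at P25 and from 2763 to 2993 (median 2839) at P80, overlapped and did not pass the test (log2 fold change 0.05, limma adjusted p = 0.222). At P0, before myelination, the 6 WT libraries had values of 107 to 392 for Ugt8a, all below the P80 values.

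The other direction held 11 genes. Il33 (ENSMUSG00000024810, chromosome 19, 29925114 to 29960718, + strand), an alarmin cytokine kept in the nucleus, ranged from 437 to 540.0 (median 510.2) at P25 and from 1966 to 2569 (median 2211) at P80, with the groups far apart. It was 4.44-fold higher at P80 (log2 fold change 2.15, SE 0.049, limma adjusted p = 1.35e-13). Serpinb1a, a protease inhibitor, ranged from 112 to 207 (median 166) at P25 and from 329 to 523 (median 398) at P80 and was 2.54-fold higher. Qdpr, which regenerates the cofactor tetrahydrobiopterin, ranged from 3172 to 3933 (median 3586) at P25 and from 6236 to 7901 (median 6606) at P80 and was 1.89-fold higher. Hapln2, a link protein of the matrix at nodes of Ranvier, ranged from 936 to 1326 (median 1088) at P25 and from 1534 to 1802 (median 1677) at P80 and was 1.51-fold higher. The others were Anln, Plekhb1, Apod, Ndrg1, Car2, Klk6 and Cryab, with log2 fold changes of 0.24 to 0.60.

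Genes of earlier stages of the lineage also fell. Of the 20 genes listed for committed precursors, the cells that have left the cycle and are about to make myelin, 19 were tested and 15 fell (78.9%), 8 of them by at least 1.5-fold, and 1 rose (Tcf7l2, log2 fold change 0.19). The median was -0.47. Gpr17 (ENSMUSG00000052229, chromosome 18, 31942997 to 31949636, - strand), a receptor that holds these cells before maturation, ranged from 3909 to 5551 (median 4187) at P25 and from 1399 to 1915 (median 1615) at P80 and was 2.66-fold lower. Enpp6, a choline phosphodiesterase of newly forming oligodendrocytes, ranged from 1030 to 1208 (median 1157) at P25 and from 401 to 474 (median 449) at P80 and was 2.54-fold lower. Kif19a, a kinesin, ranged from 299 to 413 (median 350.4) at P25 and from 99.9 to 153 (median 118) at P80 and was 2.89-fold lower. Bmp4, a secreted ligand, fell with overlap, from 121 to 193 (median 146) at P25 and from 64.6 to 157 (median 77.7) at P80 (log2 fold change -0.83, limma adjusted p = 0.00182). Rras2, a small GTPase, ranged from 614 to 774 (median 679.6) at P25 and from 8.26 to 317 (median 306) at P80, and its size rests partly on P80 male 2 and P80 female 3, which lay far below the other P80 libraries. Without the first or the second its log2 fold change was -1.93 or -2.09, in place of -2.70.

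Of 22 oligodendrocyte precursor genes, all tested, 12 fell (54.5%), 3 of them by at least 1.5-fold, and 0 rose. Olig2, a transcription factor of the whole lineage, ranged from 1324 to 1505 (median 1412) at P25 and from 843 to 1035 (median 933) at P80 without overlap (log2 fold change -0.60). Pdgfra, the growth factor receptor that defines these cells, ranged from 1638 to 1953 (median 1802) at P25 and from 1338 to 1900 (median 1694) at P80, overlapped and did not pass the test (log2 fold change -0.12, limma adjusted p = 0.164).

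**Figure D3:**
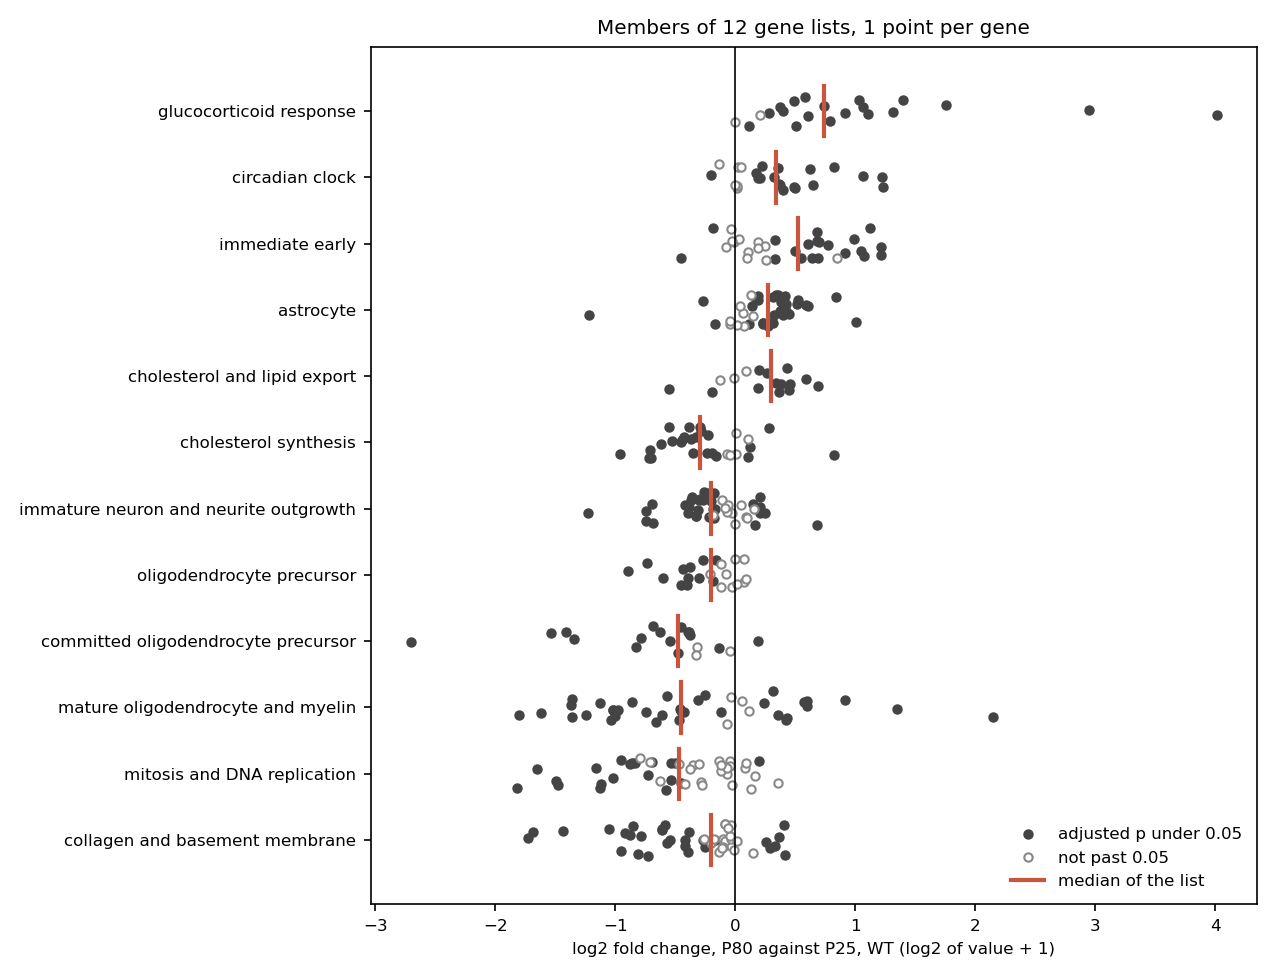
Log2 fold change from P25 to P80 in WT brain of each tested member of 12 gene lists, 1 point per gene, filled where the limma adjusted p is under 0.05, with a red bar at the list median. Glucocorticoid genes lie at or to the right of 0, oligodendrocyte precursor genes mostly to the left, and myelin genes spread from -1.80 (Ugt8a) to 2.15 (Il33).

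Many proliferation genes fell. Of 45 listed mitosis and replication genes 43 passed the filter, and 19 fell (44.2%), 14 of them by at least 1.5-fold, while 1 rose (Mcm4, log2 fold change 0.20). The median was -0.47. Top2a (ENSMUSG00000020914, chromosome 11, 98992943 to 99024189, - strand), a topoisomerase that untangles replicated DNA, ranged from 106 to 190.1 (median 156) at P25 and from 30.3 to 60.8 (median 40) at P80. The groups did not overlap and Top2a was 3.52-fold lower at P80 (log2 fold change -1.81, SE 0.191, limma adjusted p = 2.74e-06). Mki67, which coats mitotic chromosomes, ranged from 119 to 218 (median 138) at P25 and from 48.9 to 86.7 (median 66.2) at P80, again without overlap, and was 2.24-fold lower. The replication licensing factor Mcm2 ranged from 173 to 196 (median 181) at P25 and from 159.9 to 205 (median 179.8) at P80 and did not pass the test (log2 fold change -0.03, limma adjusted p = 0.787). Other subunits of its complex had log2 fold changes between -0.12 and 0.20. Most of these genes were low at both ages, and the 14 that reached a mean of 100 over the 12 libraries had a median log2 fold change of -0.07.

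Windows of Top2a and Mki67 are printed because both carry the 2 short motifs searched in this list. Mcm2, which did not pass the test, carries both motifs as well. A match of letters is no evidence of binding in any window printed here. CCAAT lay in 28 of the 37 members with a window (75.7%) and in 39.9% of the 12776 genes. TTTGAA, the cell cycle homology region, lay in 12 of the 37 (32.4%) and in 13.2% of all. Capitals mark both, on either strand (ATTGG and TTCAAA on the other), and no base is shared between motifs. Top2a is at chr11:99024190-99024439 (-) and Mki67 at chr7:135716380-135716629 (-).
Top2a: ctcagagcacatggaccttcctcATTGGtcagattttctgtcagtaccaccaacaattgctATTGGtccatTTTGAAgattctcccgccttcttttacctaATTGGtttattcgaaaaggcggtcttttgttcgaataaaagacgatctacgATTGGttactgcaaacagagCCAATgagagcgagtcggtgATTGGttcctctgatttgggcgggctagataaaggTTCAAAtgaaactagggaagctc
Mki67: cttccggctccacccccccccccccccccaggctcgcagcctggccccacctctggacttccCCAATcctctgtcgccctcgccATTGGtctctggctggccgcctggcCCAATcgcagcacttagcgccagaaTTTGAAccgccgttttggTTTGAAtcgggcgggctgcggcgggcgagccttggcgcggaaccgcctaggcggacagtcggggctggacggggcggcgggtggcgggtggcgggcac
Top2a holds 6 CCAAT and 2 TTTGAA matches, and Mki67 holds 3 and 2.

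Most genes of young neurons fell. All 45 listed genes of immature neurons and neurite outgrowth were tested, 27 fell (60.0%) and 7 rose (15.6%), with a median log2 fold change of -0.20. Marcksl1, an actin-regulating substrate of protein kinase C, ranged from 4331 to 5732 (median 5027) at P25 and from 2026 to 2288 (median 2105) at P80 and was 2.34-fold lower. Tmsb10, a thymosin that binds actin monomers, ranged from 3064 to 4306 (median 3502) at P25 and from 2042 to 2449 (median 2183) at P80 and was 1.61-fold lower. Dcx, doublecortin of migrating neurons, ranged from 1804 to 2364 (median 2099) at P25 and from 1555 to 2051 (median 1736) at P80, a small fall with overlap (log2 fold change -0.23, limma adjusted p = 0.0153). In all, 5 members fell by at least 1.5-fold, and 1, Eomes, rose by that much (log2 fold change 0.68).

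Most listed genes of cholesterol synthesis fell, and most of export or storage rose. Myelin membrane is rich in cholesterol, which the brain makes itself. Of 29 listed genes of synthesis and its control, all tested, 20 fell (69.0%) and 4 rose, with a median of -0.30. Hmgcs1 (ENSMUSG00000093930, chromosome 13, 119690379 to 119708260, + strand), an early enzyme of the pathway, ranged from 15798 to 17491 (median 16668) at P25 and from 8077 to 9230 (median 8516) at P80. It did not overlap and was 1.94-fold lower at P80 (log2 fold change -0.96, SE 0.0372, limma adjusted p = 6.64e-11). Sqle, squalene epoxidase, ranged from 3105 to 3381 (median 3233) at P25 and from 1791 to 2092 (median 2020) at P80 and was 1.63-fold lower. The 4 that rose were regulators and not enzymes. Srebf1, a sterol-regulated transcription factor that mainly drives fatty acid genes, ranged from 1148 to 1331 (median 1226) at P25 and from 2069 to 2325 (median 2171) at P80 and was 1.77-fold higher, and Scap, Srebf2 and Insig2 had log2 fold changes of 0.28, 0.13 and 0.11.

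Of 16 genes of cholesterol and lipid export or storage 11 rose (68.8%) and 2 fell, with a median of 0.30. Abca1, the pump that loads cholesterol onto apolipoproteins, ranged from 1299 to 1409 (median 1338) at P25 and from 1604 to 2047 (median 1716) at P80 without overlap and was 1.3-fold higher. Nr1h3, the sterol receptor LXR alpha, and Soat1, which esterifies cholesterol, rose with log2 fold changes of 0.69 and 0.59. Apoe, the main lipid carrier of the brain, ranged from 37481 to 44997 (median 39569) at P25 and from 38131 to 49312 (median 43387) at P80 and did not pass the test (log2 fold change 0.09, limma adjusted p = 0.183).

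The window of Hmgcs1, chr13:119690101-119690350 (+), is shown for its sterol response element, TCACCCCA, and its CCAAT boxes, the sites where sterol-regulated and NF-Y factors are known to act together. TCACCCCA lay in 2 of the 21 synthesis genes with a window (9.52%, Hmgcs1 and Srebf2) and in 1.6% of the 12776 genes, and CCAAT in 19 of 21 (90.5%) and 39.9%. Capitals mark both motifs on either strand, with no base in common.
Hmgcs1: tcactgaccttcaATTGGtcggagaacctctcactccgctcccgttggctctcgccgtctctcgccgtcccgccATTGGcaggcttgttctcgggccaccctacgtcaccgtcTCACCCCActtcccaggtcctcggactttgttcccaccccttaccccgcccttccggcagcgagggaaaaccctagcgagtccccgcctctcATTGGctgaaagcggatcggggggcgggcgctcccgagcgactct
It holds 1 sterol element and 3 CCAAT matches.

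All 47 listed genes of collagen and basement membrane were tested, 23 fell (48.9%), 14 of them by at least 1.5-fold, and 6 rose, with a median of -0.20. Col3a1 (ENSMUSG00000026043, chromosome 1, 45311538 to 45349706, + strand), a fibrillar collagen, ranged from 425 to 501 (median 489) at P25 and from 65 to 235 (median 179) at P80, without overlap although 2 P80 female libraries lay well below the other P80 libraries. It was 3.31-fold lower at P80 (log2 fold change -1.73, SE 0.236, limma adjusted p = 3.35e-05). Eln, elastin of arterial walls, ranged from 1117 to 1423 (median 1228) at P25 and from 299 to 449.6 (median 396) at P80 and was 3.21-fold lower. Lox, which cross-links both, ranged from 46.6 to 71.6 (median 66.2) at P25 and from 15.9 to 39.7 (median 22.1) at P80 and was 2.71-fold lower. Col1a1 ranged from 682 to 928 (median 758) at P25 and from 325 to 452 (median 358) at P80 and was 2.07-fold lower. Among those that rose were the small proteoglycans Lum, Bgn and Dcn, with log2 fold changes of 0.42, 0.40 and 0.29.

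Endothelial genes were called as often in either direction, with 10 of 40 higher and 10 lower and a median of 0.01. Kdr, the main receptor for vascular endothelial growth factor, ranged from 742 to 883 (median 842) at P25 and from 329.7 to 406 (median 362) at P80 and was 2.28-fold lower. Slc38a5, an amino acid transporter of growing vessels, ranged from 177 to 196 (median 188) at P25 and from 54.1 to 116 (median 81.5) at P80 and was 2.3-fold lower. Slc2a1, the glucose transporter of the blood-brain barrier, ranged from 2706 to 3404 (median 2945) at P25 and from 4293 to 6527 (median 5044) at P80 and was 1.72-fold higher. Cldn5, the main claudin of endothelial tight junctions, ranged from 1163 to 1534 (median 1391) at P25 and from 850.3 to 1048 (median 948) at P80, without overlap, and fell (log2 fold change -0.53). The junction proteins Pecam1 and Cdh5 had log2 fold changes of -0.08 and 0.09 and did not pass the test.

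Blood genes fell in 8 of the 12 tested of 20 listed, with 0 higher and a median of -1.01. Their summed values were 26221 to 43821 at P25 and 15336 to 21053 at P80, without overlap. Hba-a2 and Hbb-bt, globin chains, had log2 fold changes of -1.59 and -1.50, and each shares sequence with a near-identical globin gene, so the split of their values between copies is uncertain. The part of blood left in the tissue in the endothelial and matrix results was not tested.

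In the list of perineuronal net and hyaluronan matrix genes 11 of 26 fell (42.3%) and 5 rose (19.2%). Has2, a hyaluronan synthase, ranged from 15.3 to 23.1 (median 17.9) at P25 and from 4.67 to 9.13 (median 6.45) at P80 and had a log2 fold change of -1.44. Tnc, tenascin C of immature matrix, ranged from 475 to 552 (median 518) at P25 and from 205 to 281 (median 221) at P80 and was 2.23-fold lower. Hapln4, the link protein of nets and nodes in the adult brain, ranged from 3045 to 3469 (median 3191) at P25 and from 4682 to 5123 (median 4881) at P80 and was 1.51-fold higher. Acan, aggrecan, the core proteoglycan of nets, had a log2 fold change of 0.11 and did not pass the test.

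Few genes of synapses and excitability differed by 1.5-fold, but so did few of all genes tested (3.65% higher and 3.42% lower). Of 7 NMDA receptor subunits 3 fell and 1 rose, 0 of them by 1.5-fold. Grin2b, the subunit of young synapses, ranged from 12359 to 17213 (median 16483) at P25 and from 10845 to 13569 (median 12671) at P80 (log2 fold change -0.28, limma adjusted p = 0.00333). Grin2a, which joins it as synapses mature, ranged from 5175 to 6488 (median 5988) at P25 and from 4876 to 5676 (median 5128) at P80 and also fell (log2 fold change -0.17, limma adjusted p = 0.0212). Grin1, the obligatory subunit, had a log2 fold change of 0.12 (limma adjusted p = 0.0295), which was -0.01 after correction for gene length and GC content. Values of all 3 subunits overlapped between the ages. Of 24 GABA and glycine receptor genes and chloride transporters 7 fell and 3 rose. Glra2, the fetal glycine receptor subunit, ranged from 652 to 723 (median 682) at P25 and from 455 to 570.2 (median 533) at P80 without overlap and was 1.3-fold lower, while Glra1, its adult counterpart and also a member of the hindbrain and spinal cord list below, had a log2 fold change of 0.87. Slc12a5 (KCC2), the chloride exporter that makes GABA inhibitory, ranged from 19853 to 22254 (median 20989) at P25 and from 21787 to 25273 (median 25089) at P80 and had a log2 fold change of 0.20.

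Voltage-gated channels rose in 13 of 41 genes (31.7%) and fell in 2 (4.88%). None differed by 1.5-fold, where 3.65% of all genes rose and 3.42% fell by that much. Scn4b, a sodium channel subunit of fast-spiking neurons, ranged from 5791 to 7184 (median 6663) at P25 and from 8043 to 9990 (median 9445) at P80 and was 1.4-fold higher. The 2 groups did not overlap. Of 56 synaptic vesicle and postsynaptic genes 22 rose (39.3%) and 10 fell (17.9%), 0 of them by 1.5-fold, with a median of 0.04. Camk2a, the kinase of the postsynaptic density, ranged from 44294 to 53162 (median 46547) at P25 and from 61795 to 69233 (median 62894) at P80 and was 1.34-fold higher. Syt2, the calcium sensor of fast synapses, ranged from 4657 to 6151 (median 5682) at P25 and from 7073 to 8907 (median 8564) at P80 and was 1.46-fold higher. Syp, synaptophysin of the vesicle membrane, ranged from 38407 to 44025 (median 40248) at P25 and from 30972 to 35051 (median 33374) at P80 and fell, with a log2 fold change of -0.30. After the correction for gene length and GC content 14 synaptic genes rose and 16 fell, so the balance of this list depends on that setting.

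Most astrocyte genes rose. All 39 were tested, 28 rose (71.8%) and 3 fell, with a median of 0.27. Etnppl, a phospholyase of adult astrocytes, ranged from 837 to 1208 (median 988) at P25 and from 1683 to 2568 (median 1932) at P80 and was 2.01-fold higher. Glul, glutamine synthetase, ranged from 34784 to 38510 (median 37152) at P25 and from 50682 to 66143 (median 54739) at P80 and was 1.52-fold higher. Fabp7, the fatty acid carrier of radial glia and young astrocytes, ranged from 1313 to 1995 (median 1836) at P25 and from 531 to 976 (median 798) at P80 and was 2.33-fold lower. Gfap, the astrocytic filament that marks reactivity, ranged from 6507 to 9423 (median 6803) at P25 and from 6555 to 8924 (median 7273) at P80 and did not pass the test (log2 fold change 0.07, limma adjusted p = 0.569).

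Homeostatic microglial genes rose in 9 of 30 (30.0%) and fell in 2. Of these, 0 differed by 1.5-fold, where 3.65% of all genes rose and 3.42% fell by that much. In the fit of males alone 11 rose, 5 of them by 1.5-fold (638 of all 18154 genes), and 1 fell. In that of females 5 rose and 2 fell, with 17.4% and 15.9% of all genes. The list level at P80 was 0.06 to 0.36 in males and -0.18 to -0.04 in females, against -0.38 to 0.10 at P25. Tyrobp, the adaptor of microglial receptors, ranged from 149.5 to 211 (median 184) at P25 and from 198 to 368 (median 262) at P80, and Aif1 (IBA1) from 85.1 to 127 (median 107) at P25 and from 62.3 to 97.2 (median 84.4) at P80, with log2 fold changes of 0.55 and -0.40 and overlap in both. Of 28 tested genes of reactive glia and complement 13 rose (46.4%) and 2 fell. C4b, complement C4, ranged from 446 to 814 (median 558) at P25 and from 906 to 1267 (median 1022) at P80 without overlap and was 1.82-fold higher. H2-Aa, an MHC class II chain, ranged from 14.2 to 26.6 (median 19.6) at P25 and from 22.5 to 57.6 (median 43.2) at P80, low values with overlap (log2 fold change 1.01). MHC class I and interferon genes rose in 13 of 38 (34.2%) and fell in 1.

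**Figure D4:**
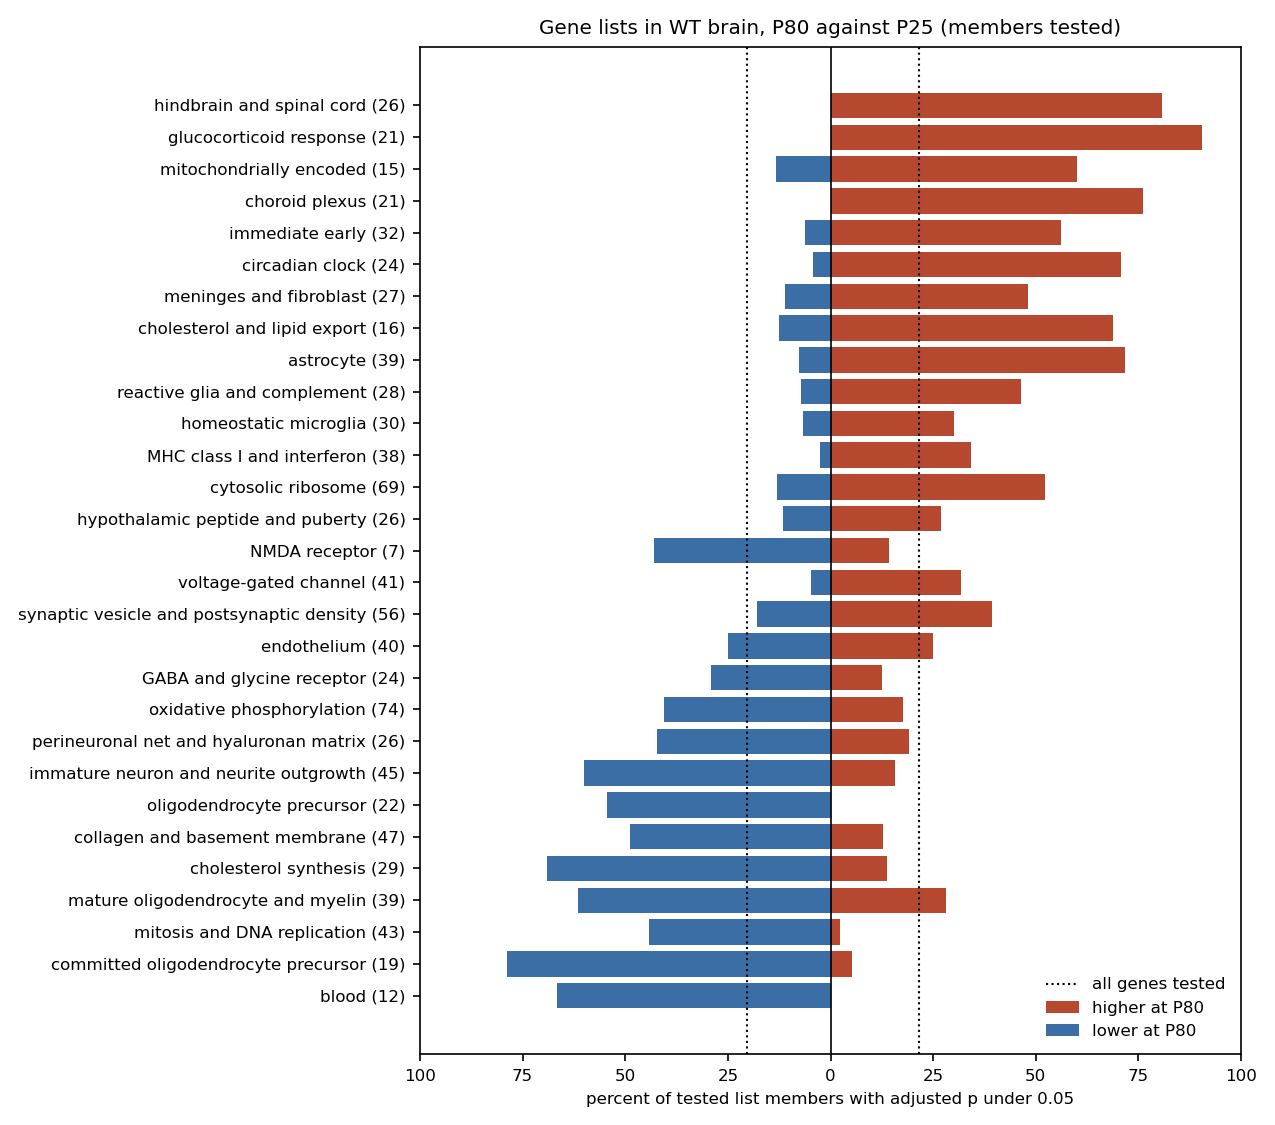
Percent of the tested members of 29 gene lists that were higher (red, right) or lower (blue, left) at P80 at a limma adjusted p under 0.05, ordered by median log2 fold change, with the number tested in brackets. Dotted lines mark the shares among all genes tested, 21.5% higher and 20.3% lower, and the glucocorticoid bar reaches 90.5%.

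Lists that mark tissue at the borders of the brain also differed. Choroid plexus genes rose in 16 of 21 (76.2%) with 0 lower and a median of 0.53. Their summed values were 15774 to 23804 at P25 and 21565 to 27785 at P80. Kcnj13, a potassium channel of this epithelium, ranged from 43.6 to 88.3 (median 54.2) at P25 and from 122 to 154 (median 134) at P80 and was 2.36-fold higher, and Ttr, the thyroxine carrier it secretes, ranged from 11941 to 19145 (median 13899) at P25 and from 16511 to 22375 (median 19344) at P80, with overlap. Genes of meninges and fibroblasts rose in 13 of 27 (48.1%) and fell in 3 (summed values 20859 to 25866 and 33376 to 43572). Hindbrain and spinal cord genes rose in 21 of 26 tested (80.8%), 0 fell, and the median was 0.86, with summed values of 2329 to 3299 and 3104 to 5667 and no defining gene at 0 in all 12 libraries. Hoxb8, expressed in the spinal cord, ranged from 0 to 10.4 (median 0.362) at P25 and from 13.2 to 131 (median 56) at P80. In 4 of the 26 hindbrain and spinal cord genes all P80 libraries lay above all P25 libraries (10.8% of all genes). In the fit of males alone 16 of the 26 rose (median 1.16), where 12.8% of all genes rose. In that of females 6 rose (median 0.55), where 17.4% of all genes rose. The list level of P80 female 2 was -0.21, inside the P25 range of -1.06 to -0.08. In HT mice 3 of these 26 genes rose, with a median of 0.31. The part of tissue composition in the glial and neuronal results was not tested.

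Among hypothalamic peptide and puberty genes 7 of 26 tested rose (26.9%) and 3 fell (11.5%), close to the background. Mkrn3, a ubiquitin ligase that holds back puberty, ranged from 162 to 192 (median 178) at P25 and from 65.5 to 86 (median 75.8) at P80 without overlap and was 2.32-fold lower at P80 (log2 fold change -1.21, SE 0.0891, limma adjusted p = 7.46e-08). Oxt, oxytocin, ranged from 153 to 195 (median 176) at P25 and from 251 to 415 (median 312) at P80, again without overlap, and was 1.78-fold higher.

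Transcripts of the mitochondrial genome rose in 9 of 15 genes (60.0%) and fell in 2. Summed over the list they were 1537950 to 1706455 at P25 and 1919368 to 2537918 at P80. The largest difference was mt-Co2, with a log2 fold change of -1.88 against 0.54 for mt-Co1 and 0.55 for mt-Co3, and these genes have nuclear copies, so their estimates are uncertain. Nuclear oxidative phosphorylation genes fell in 30 of 74 (40.5%) and rose in 13, and cytosolic ribosome genes rose in 36 of 69 (52.2%) and fell in 9. The part of mitochondrial transcripts in the other results was not tested.

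The rule for single genes, which asks for a mean of at least 100, no overlap and the largest fold changes, named several outside these lists. Fmo2, a flavin monooxygenase, ranged from 12.2 to 59.4 (median 27.6) at P25 and from 148 to 450.4 (median 256) at P80. Abca8a, a lipid transporter, ranged from 73.2 to 239.7 (median 139) at P25 and from 284 to 529 (median 368) at P80, and Paqr5, a membrane progesterone receptor, from 87.1 to 113 (median 96.2) at P25 and from 164 to 359 (median 252) at P80. These 3 rose, with log2 fold changes of 3.19, 1.44 and 1.32. Csrnp1, a nuclear protein, ranged from 117 to 213 (median 149) at P25 and from 361 to 484 (median 416) at P80 (1.41 on the log2 scale), and Hypk, a chaperone partner of huntingtin, from 276 to 435 (median 339) at P25 and from 714 to 1021 (median 813) at P80 (1.28).

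Bc1, a short dendritic RNA that represses translation, ranged from 20.3 to 177 (median 115) at P25 and from 895 to 1396 (median 1241) at P80. Its log2 fold change was 3.91, and the lack of overlap was a condition of the rule. Hspa1b, a heat shock protein, ranged from 215 to 317 (median 254) at P25 and from 494 to 2368 (median 733) at P80, and Ppp1ccb from 41.3 to 78.6 (median 50.7) at P25 and from 340.4 to 461 (median 422) at P80. Both share sequence with a near-identical copy, as does Eif4a-ps4, which was listed at 0 in all 6 P80 libraries, so these values are uncertain.

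On the falling side the rule named mostly genes already described. The others were Rab7b, a small GTPase of late endosomes, which ranged from 294 to 377 (median 318) at P25 and from 40.3 to 60.8 (median 48.2) at P80 and was 6.61-fold lower at P80 (log2 fold change -2.72, SE 0.096, limma adjusted p = 2.38e-11), Mybpc3 and Slc45a3. Mybpc3, best known as a heart muscle protein, ranged from 929 to 1224 (median 1119) at P25 and from 206 to 296 (median 266) at P80 and had a log2 fold change of -2.09. At P0 its median in the 6 WT libraries was 3.84. Slc45a3, a sugar transporter, ranged from 170.1 to 218 (median 190.3) at P25 and from 58.1 to 97.1 (median 69.8) at P80 and had a log2 fold change of -1.41.

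The same contrast was fitted in each sex, 3 libraries against 3. Males gave 4528 called genes (24.9%) and females 6044 (33.3%). Of these, 2896 were called in both with the same sign, which is 63.96% of the male and 47.92% of the female calls, and 16 with opposite signs. All 1283 genes called with at least 1.5-fold in the 12 libraries had the same sign in both sexes. These genes were picked in a fit that pooled both sexes, so that result was largely fixed by the selection. Across genes the log2 fold changes of the sexes had a Pearson correlation of 0.70, a description over genes, which are not independent.

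A test of the difference itself, the interaction of age and sex, called 6 genes (0.0331%), with 2900 at an unadjusted p under 0.05. The count depended on single libraries, ranging from 0 to 524 when 1 was left out, and was 524 without P25 male 1 and 31 without P80 male 3. Plin4 rose in both sexes, by 4.80 on the log2 scale in males and 3.23 in females (difference 1.57, limma adjusted p = 0.0448). Its P80 values were 1167, 1184 and 997.2 in males and 683.0, 543.4 and 492.4 in females, so each male lay above each female. At P25 the males (36.52 to 41.47) lay below the females (47.12 to 68.42). Hspa5, the main chaperone of the endoplasmic reticulum, went from 7430 to 7614 at P25 to 8603 to 10112 at P80 in males, and from 7699 to 8396 to 5806 to 6981 in females (difference 0.67, limma adjusted p = 0.0448). Cdc73, Gm10033 and Gm45493 differed in the same direction as these 2, and Fndc10 in the other. The glucocorticoid list level at P80 was 0.60 to 0.73 in males and 0.29 to 0.38 in females, against -0.57 to -0.44 and -0.51 to -0.47 at P25, given as a description.

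HT mice gave a further reading of the same ages in 12 other animals, which carry 1 S62X allele of Chd8 and so are not replicates of the WT mice. No run or hour is given for HT mice either. A run or hour shared by both genotypes of an age cannot be told apart from age by this comparison. Chd8 (chromosome 14, 52198151 to 52257780) ranged from 3623 to 4707 (median 4149) at P25 and from 3375 to 3862 (median 3630) at P80 in WT mice. It was 5905 to 6747 at P25 and 4582 to 5149 at P80 in HT mice, above WT at both ages, and the value counts both alleles. It fell with age in WT mice (log2 fold change -0.19, limma adjusted p = 0.00493).

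In HT mice 7347 of 18193 genes tested differed between P25 and P80 (40.4%), 20.7% higher and 19.7% lower. Of 7580 WT calls that were tested in HT mice, 7497 (98.91%) had the same sign, against 75.96% of genes not called in WT mice. In 5845 the call was made in both with the same sign, which is 77.11% of these WT calls and 79.83% of the 7322 HT calls tested in WT mice, and 0 genes were called with opposite signs. The log2 fold changes had a Pearson correlation of 0.87 across 17977 genes. The interaction of age and genotype called 0 of 18187 genes in limma, with 552 at an unadjusted p under 0.05. A count of 0 does not show that the genotypes age alike.

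List by list, the counts in HT mice were as follows. Myelin genes rose in 11 and fell in 24 of 39 (median -0.42), the same counts as in WT mice, and committed precursor genes fell in 15 of 19 (median -0.58). Glucocorticoid response genes rose in 18 of 21 (median 0.77), and cholesterol synthesis genes fell in 20 of 29 (median -0.30). Immediate early genes rose in 12 of 32 with a median of 0.28, and hindbrain and spinal cord genes in 3 of 26, counts below those in WT mice, but the difference was not tested.

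**Figure D5:**
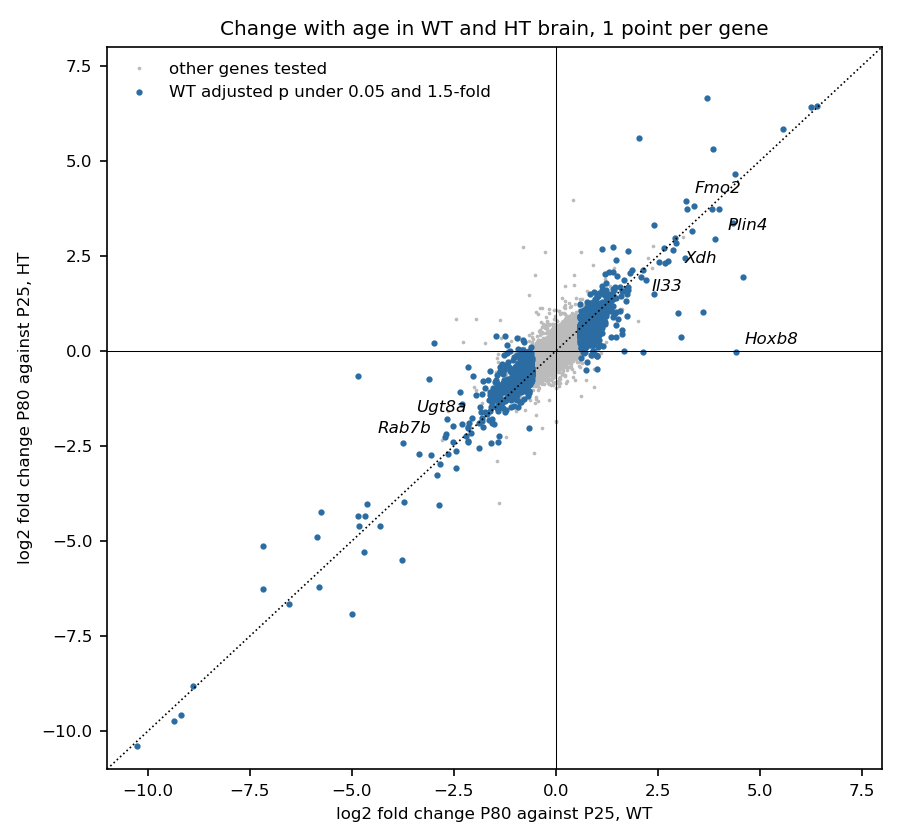
Log2 fold change from P25 to P80 of each gene tested in both genotypes, WT on the horizontal and HT on the vertical axis, with genes called with at least 1.5-fold in WT in blue and the line of equal change dotted. Most blue points lie near the line, Hoxb8 lies at 4.42 in WT and -0.03 in HT, and Plin4 at 4.01 and 3.74. Hoxb8 values were low in WT (0 to 10.4 at P25 and 13.2 to 131 at P80). The interaction of age and genotype called 0 of 18187 genes.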

How the data were processed

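RNA-seq of whole brain was read from 1 table of 29799 genes and 36 libraries, with 0 unmatched columns. Per the labels and methods, the authors estimated fragments per transcript with Salmon 1.1.0 on GRCm38, collapsed transcripts to genes (tximport) and applied DESeq2 1.26.0 normalization. The deposited values are therefore a normalized signal and not counts, and the annotation release is not given in the sources used here. Genes averaging 10 or more across the 12 WT libraries were kept, log2(value + 1) was taken, and P80 was tested against P25 with limma 3.58.1 (trend, sex as covariate, two-sided, Benjamini-Hochberg threshold 0.05, R 4.3.3). Fold changes on this scale understate those of low genes. The script was checked on simulated data. Single genes were named where they were called, did not overlap, had a mean of at least 100 and were among the 15 largest changes in a direction, or belonged to a described list, or led an interaction, or were Chd8. The members and lists were chosen with earlier results of these data known, and 29 of 53 lists are described. Motifs were searched in RefSeq promoters. Alternatives covered the filter, pseudocount, scaling, weights, covariates, a replicate block and each library left out. Results of some genes are not reported here.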

Additional observations from a re-analysis of the deposited data

Results flagged for a closer look

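In 6 genes the change from P25 to P80 differed between WT males and WT females in the test of that difference, the interaction of age and sex in limma. The difference, male minus female on the log2 scale, was 1.57 for Plin4, 0.67 for Hspa5, 0.79 for Cdc73, 0.63 for Gm10033, 2.06 for Gm45493 and -0.53 for Fndc10, with limma adjusted p from 0.0448 to 0.0495. Cdc73, a subunit of the PAF1 transcription complex, went from 1170 to 1485 at P25 to 1703 to 1825 at P80 in males, and from 1705 to 1962 to 1367 to 1543 in females. Gm10033 went from 417.9 to 453.5 to 652.6 to 729.3 in males, while females had 541.3 to 591.7 and 557.1 to 599.0. Gm45493 went from 14.8 to 24.2 to 41.2 to 53.0 in males, and from 41.4 to 50.6 to 25.6 to 30.3 in females. Fndc10 had 997.2 to 1091 and 984.7 to 1068 in males, and went from 843.0 to 929.8 to 1246 to 1298 in females. These calls were close to the threshold. Plin4, Hspa5 and Cdc73 passed it in 11 of 20 alternatives each, Gm10033 and Fndc10 in 7 of 20, and Gm45493 in 6 of 19.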

How the results depend on the processing

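Of 93 called genes named by the rule or in the text, 86 kept direction and call under each alternative that included them. There were up to 24 alternatives per gene, and genes with a mean under 100 were absent from the fit with that minimum. The exceptions were Arntl, Dcx, Egr2, Fndc10, Grin1, Grin2a and Slc12a5, and Fos passed the threshold under some. Across 18139 genes the WT log2 fold change had a Spearman correlation of 0.245 with transcript GC content and 0.0472 with length. The cause of this trend was not tested. Grin1 reversed to -0.011 after correction for length and GC content. The same correction, added for lists after seeing the data, gave list medians of 0.81 for glucocorticoid response, 0.28 for clock, -0.28 for oligodendrocyte precursor, 0.21 for cholesterol export, -0.31 for collagen, -0.13 for NMDA receptor, -0.022 for synaptic and 0.74 for mitochondrially encoded genes. Quantile normalization gave -0.22 for oligodendrocyte precursor and 0.26 for mitochondrially encoded genes. A minimum mean of 100, which leaves fewer genes, gave 548 calls of at least 1.5-fold and medians of -0.069 for mitosis, -1.20 for blood, -0.057 for NMDA receptor and 0.0064 for hypothalamic genes, and a pseudocount of 10 gave -0.81 for blood. With no filter males gave 3003 calls and the interaction of age and genotype 1. The interaction of age and sex gave 10 calls with a minimum mean of 100, 11 with median-of-ratios scaling, 3 with quantile normalization and 87 with array quality weights, and the cause was not tested. Leaving out 1 library gave 6910 to 7456 calls for WT age, 2834 to 4123 for males, 0 to 524 for age by sex (524 without P25 male 1), 0 to 1 for age by genotype, and medians of -0.21 to -0.18 for oligodendrocyte precursor genes. With a replicate block WT age gave 6813 calls and age by sex 2. Libraries sharing a number did not deviate together (correlations -0.05 to 0.04). With groups of 3 libraries this cannot show that the numbers pair no libraries. Depth is known only on the normalized scale, so no counting error can be given.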

Other observations

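Gene types differed in how often they changed by at least 1.5-fold. Among protein-coding genes 494 rose and 410 fell of 15282 tested (5.92%). Among pseudogenes 42 rose and 53 fell of 386 (24.6%), and among long non-coding or unclassified genes 123 rose and 154 fell of 2459 (11.3%). In 7 genes all 12 libraries of 1 age, WT and HT, had values of at least 10 and all 12 of the other age were listed at 0. At P80 these were Gm12918, Gm5641, Eif4a-ps4, Gm44002 and Gm10095, and at P25 Gm27998 and Gm19716, and 5 of the 7 are annotated as pseudogenes. The largest of them was Gm12918, with 1035 to 1943 at P25. No fold change is given against a group listed at 0.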
